A study of Mus musculus with 8 samples.

Results

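Arginine and polyamine metabolism was followed here through 10 genes in mouse ankle joints. They are the arginine transporters Slc7a1 and Slc7a2, the arginases Arg1 and Arg2, the nitric oxide synthase Nos2, the arginine-making enzyme Ass1, and Odc1, Srm, Sat1 and Oat, which act on ornithine and polyamines. A probe set was a member where its annotation named only 1 gene and that gene was on this list, which gave 18 probe sets of 45101 and 10 genes of the 18193 so named. The 8 Affymetrix arrays came from ankle joints of mice aged 5 months. The 2 wild-type arrays are labelled with normal TNFa and normal sphingosine kinase 1 (Sphk1), the enzyme that makes sphingosine 1-phosphate. The 3 hTNF arrays came from mice over-expressing a human TNFa transgene, with normal Sphk1. The other 3 came from mice with the same transgene and a functional null of Sphk1. The labels name no promoter, copy number, strain or sex, and each array is labelled as a mouse of its own. Nothing says that animals of a group were raised or prepared apart, so the p-values cover the spread among these arrays alone, and that may be technical. Values below are log2 expression values, in order of replicate number.

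Arginine enters cells through cationic amino acid carriers such as Slc7a1 and Slc7a2 and is then shared between competing enzymes. Nitric oxide synthases turn it into nitric oxide and citrulline, which Ass1 and Asl can recycle to arginine, whereas arginases split it into urea and ornithine. Ornithine is decarboxylated by Odc1 to putrescine, extended by Srm to spermidine, or sent by Oat towards proline, and Sat1 acetylates spermidine and spermine for export or breakdown. In inflamed tissue, Nos2 and Arg1 are widely used markers of macrophages in different states of activation.

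The brighter Sphk1 probe set was lowest in wild type (7.16 to 7.25), higher in hTNF (8.28 to 8.65) and highest in the arrays labelled Sphk1 null (9.94 to 10.22), so it read highest where the label gives a functional null. Whether its probes lie inside the altered stretch of Sphk1 is not known here, so this level does not check the label, and the group is called by its label throughout. Of the joint markers, Prg4 (14.30 to 14.52) and Comp (12.96 to 13.72) were bright on all 8 arrays. Wild-type replicate 2, hTNF replicate 1 and replicate 1 of the arrays labelled Sphk1 null carried Xist together with Y-linked signal and are called the 3 mixed arrays. In that order Xist read 13.09, 13.05 and 11.19 (cut: above 9) and the Y-linked Eif2s3y 6.91, 6.60 and 9.14 (cut: above 5). Both signals on 1 array sit badly with a label of 1 mouse per array. Whether each array is 1 animal is therefore not settled here. The mean of 24 skin genes ran from 6.35 to 10.77 within the hTNF group alone.

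Most of the tested arginine and polyamine genes differed between transgenic and wild-type joints. In hTNF joints Arg1, Slc7a2, Arg2, Sat1 and Slc7a1 rose and Odc1 fell, by amounts from 25.5-fold for Arg1 to 1.34-fold for Slc7a1. Nos2, Srm and Oat did not pass in that comparison. These calls come from a limma fit over 24115 probe sets, and a gene was called at a Benjamini-Hochberg adjusted p under 0.05. A probe set entered the fit where at least 2 of the 8 arrays read above 6.87, the table's median. This kept 15 of the 18 probe sets and 9 of the 10 genes, all but Ass1. Each gene is represented by its brightest probe set that passed.

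In hTNF against wild type, 5 of the 9 tested genes rose and 1 fell, or 66.7%, beside 33.0% of all tested probe sets called in either direction. Their median difference was 0.59, beside 0.01 over all tested probe sets. Counted as genes, each by its brightest passing probe set, 2044 of 12362 rose and 2420 fell in hTNF, with a median of -0.02. In the arrays labelled Sphk1 null against wild type, 7 of the 9 rose and 1 fell, or 88.9%, beside 39.0% of all probe sets. The median of the 9 was 0.75, and of the same 12362 genes 2366 rose and 2945 fell. The groups did not overlap in 8 and 9 of the 9 genes, beside 61.5% and 57.3% of all probe sets. At an unadjusted p under 0.05 all 9 tested genes passed in both comparisons, beside 42.2% and 47.1%. Arg1 passed the filter only through the 6 transgenic arrays and Arg2 only through the 3 arrays labelled Sphk1 null, so their place in these counts is partly set by the filter. Both comparisons share the same wild-type arrays and are not independent. Whole joints were measured, so fewer cells of a type and less RNA per cell cannot be told apart.

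**Figure D1:**
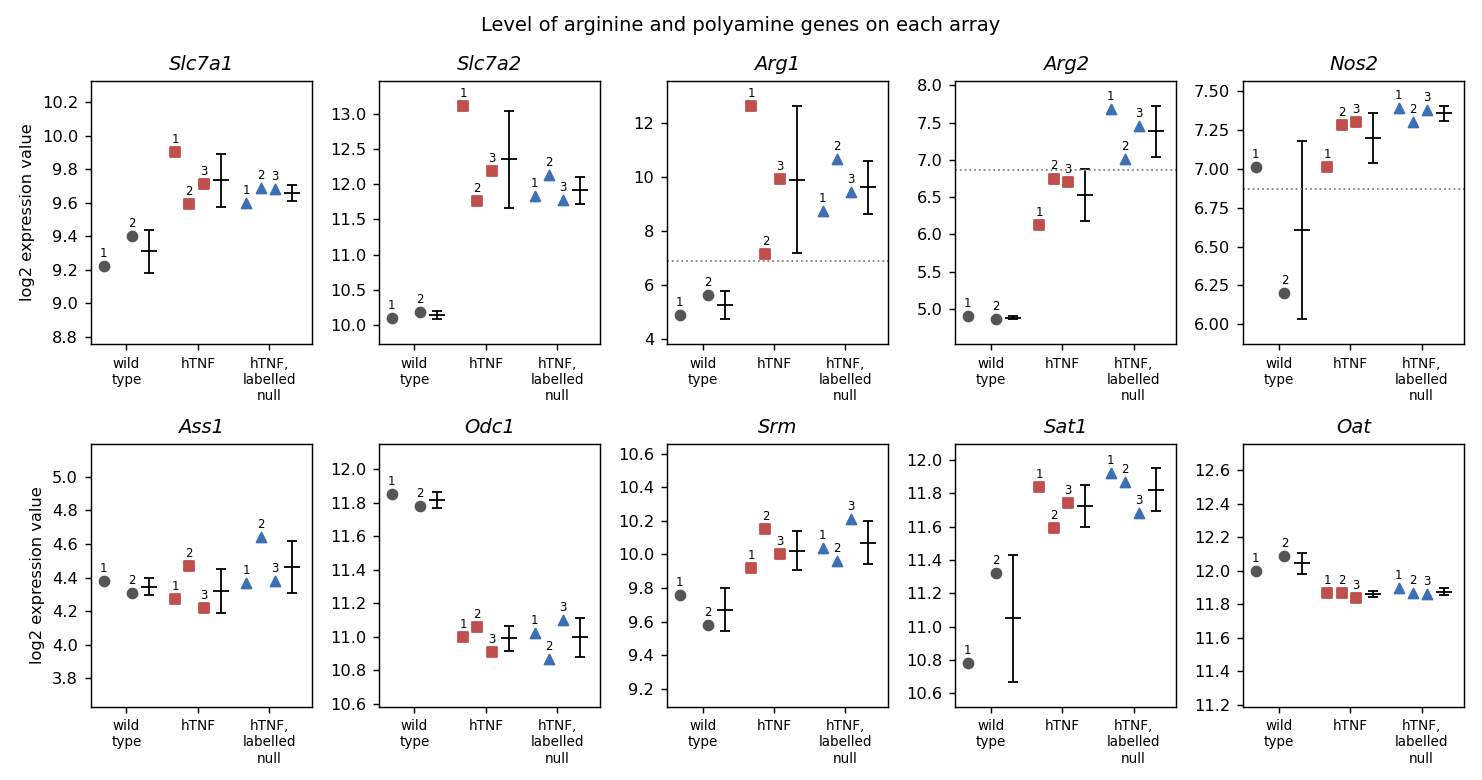
The plot gives the log2 expression value (vertical axis, a different range in each panel) of the brightest tested probe set of each gene, or the brightest one for Ass1, on every array. Numbers are replicates, the bar beside each group is mean and SD (n = 2, 3 and 3), and the dotted line is the filter value of 6.87; wild-type arrays lie below every transgenic array for Slc7a1, Slc7a2, Arg1, Arg2, Srm and Sat1, and above them for Odc1 and Oat.

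The inducible carrier Slc7a2 rose on all 4 of its probe sets. The brightest read 10.10 and 10.18 in wild type, 13.11, 11.76 and 12.19 in hTNF, and 11.83, 12.13 and 11.78 in the arrays labelled Sphk1 null. All 6 transgenic arrays lay more than 1 log2 unit above wild type, with hTNF replicate 1 on top. The rise was 2.21 ± 0.31 (SE, 3 arrays against 2; 4.64-fold; limma adjusted p = 0.000756) in hTNF and 1.77 ± 0.31 (3.42-fold; limma adjusted p = 0.00177) in the arrays labelled Sphk1 null. Over the 4 probe sets hTNF differed from wild type by 2.21 to 2.70, and the arrays labelled Sphk1 null did by 1.77 to 2.28. The dimmest of them, at 4.87 and 4.78 in wild type, was below the filter value there. That probe set passed the filter only through 2 hTNF arrays and 2 arrays labelled Sphk1 null, so its calls are partly set by the filter. Slc7a2 passed under every alternative run, with hTNF minus wild type between 1.84 and 2.51 when single arrays were left out.

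Slc7a1, the carrier that most cells use for arginine, rose much less. Its brightest probe set read 9.22 and 9.40 in wild type, 9.90, 9.59 and 9.71 in hTNF, and 9.60, 9.69 and 9.68 in the arrays labelled Sphk1 null. The wild-type arrays were lowest, and the gap between wild-type replicate 2 and the nearest transgenic array was about as wide as the gap between the wild-type arrays themselves. In hTNF it rose by 0.42 ± 0.12 (1.34-fold; limma adjusted p = 0.0244), and in the arrays labelled Sphk1 null by 0.35 ± 0.12 (1.27-fold; limma adjusted p = 0.0477). A second probe set rose by 0.47 ± 0.12 and 0.39 ± 0.12 (limma adjusted p = 0.0163 and 0.0294), and the third was dim at 5.36 to 5.59 on all arrays. Both calls were fragile: the one in hTNF ended without wild-type replicate 1 (0.33; limma adjusted p = 0.183), hTNF replicate 1 (0.0726) or hTNF replicate 3 (0.0619), with replicate number as a block (0.0749) and with the skin covariate (0.0511). The one in the arrays labelled Sphk1 null ended under 12 of 19 alternatives.

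The RefSeq promoter table (build GRCm38.p6) holds windows for 5 of the 10 members. Arg1, Arg2, Nos2, Slc7a2 and Srm have none there and were not searched. The stretch before the start of Slc7a1 is shown because, among the windows held, it is the single one with an AP-1 motif. It spans chr5:148399905-148400154, and the sequence is that of the minus strand, 5′ to 3′, ending at the base before the annotated start. Capitals mark the AP-1 motif (TGANTCA), 123 bases before the start, and a GC box (GGGCGG, here on the other strand), 36 bases before it.

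Slc7a1: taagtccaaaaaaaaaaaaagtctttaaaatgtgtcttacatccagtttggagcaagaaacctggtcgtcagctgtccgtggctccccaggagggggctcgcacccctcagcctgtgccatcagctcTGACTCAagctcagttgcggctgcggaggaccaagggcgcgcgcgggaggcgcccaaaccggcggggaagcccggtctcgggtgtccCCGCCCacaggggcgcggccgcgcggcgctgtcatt

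Both strands were searched, and the motifs do not overlap. Of all 32851 windows of 250 bases in the table, 6.75% hold an AP-1 motif of these letters and 32.7% a GC box.

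Arg1, the cytosolic arginase of liver and of alternatively activated macrophages, showed the widest spread of all members. It read 4.87 and 5.60 in wild type, 12.63, 7.15 and 9.94 in hTNF, and 8.73, 10.67 and 9.44 in the arrays labelled Sphk1 null. Every transgenic array was above both wild-type arrays, but hTNF replicate 1 and replicate 2 stood farther apart than hTNF replicate 2 and wild type. The difference was 4.67 ± 1.25 (25.5-fold; limma adjusted p = 0.0181) in hTNF and 4.38 ± 1.25 (20.8-fold; limma adjusted p = 0.0207) in the arrays labelled Sphk1 null. Wild-type values lay below the filter value, so the folds depend on background, and an offset of 32 before log2 gave 3.89 and 3.55. Single arrays moved the value in hTNF widely, to 3.31 without hTNF replicate 1 and to 6.05 without hTNF replicate 2. Both calls ended without either wild-type array (limma adjusted p of 0.112 and 0.0586 in hTNF, and of 0.116 and 0.0637 in the arrays labelled Sphk1 null) and with robust variances (0.0884 and 0.0935). The call in hTNF also ended in a fit of those groups alone (0.0503), and the other one without replicate 2 of the arrays labelled Sphk1 null (3.85; 0.0616).

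Arg2, the mitochondrial arginase found in many tissues, rose in both transgenic groups. Its brighter probe set read 4.90 and 4.87 in wild type, 6.13, 6.75 and 6.70 in hTNF, and 7.68, 7.01 and 7.46 in the arrays labelled Sphk1 null. The 3 groups did not overlap, with wild type lowest and the arrays labelled Sphk1 null highest. The rise was 1.64 ± 0.24 (3.12-fold; limma adjusted p = 0.000999) in hTNF and 2.50 ± 0.24 (5.65-fold; limma adjusted p = 7.85e-05) in the arrays labelled Sphk1 null. Wild-type values lay below the filter value here too, and an offset of 32 before log2 gave 1.02 and 1.70. Arg2 passed in both comparisons under every alternative that tested it. It was not tested under the filter on the mean of all arrays or with the mean over probe sets. The second probe set stayed below the filter value on all arrays, at 4.55 and 4.68 in wild type, 5.14, 5.56 and 5.55 in hTNF, and 6.36, 5.47 and 6.14 in the arrays labelled Sphk1 null. There the wild-type arrays were again lowest, and the transgenic groups overlapped.

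Nos2, the inducible nitric oxide synthase of activated macrophages, differed little beside the arginases. It read 7.01 and 6.20 in wild type, 7.01, 7.28 and 7.30 in hTNF, and 7.39, 7.30 and 7.38 in the arrays labelled Sphk1 null. Wild-type replicate 1 equalled hTNF replicate 1, so only replicate 2 of wild type stood apart from the hTNF arrays. The difference was 0.59 ± 0.22 (1.51-fold; limma adjusted p = 0.0664) in hTNF, or 0.46 with an offset of 32 before log2. Its size turned on the wild-type arrays. It was 1.00 and called without wild-type replicate 1 (limma adjusted p = 0.0079), 0.19 without wild-type replicate 2 (0.523) and 0.28 without the 3 mixed arrays (0.215). In the arrays labelled Sphk1 null it rose by 0.75 ± 0.22 (1.68-fold; limma adjusted p = 0.0225). That call ended without wild-type replicate 2 (0.35; limma adjusted p = 0.192), without the 3 mixed arrays (0.33; 0.136) and without replicate 3 of the arrays labelled Sphk1 null (0.0620).

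Ass1, which makes the arginine precursor argininosuccinate from citrulline, was dim throughout on the 1 probe set that names it alone. It read 4.38 and 4.31 in wild type, 4.27, 4.47 and 4.22 in hTNF, and 4.37, 4.64 and 4.38 in the arrays labelled Sphk1 null, all below the filter value. The 3 groups overlapped, and without the filter the difference was -0.03 ± 0.12 in hTNF and 0.12 ± 0.12 in the arrays labelled Sphk1 null (limma adjusted p = 0.947 and 0.591). A brighter reading cannot be given here, because 1 other probe set is annotated to Ass1 together with another gene.

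Odc1, the ornithine decarboxylase that starts polyamine synthesis, was the member that fell. Its brightest probe set read 11.85 and 11.78 in wild type, 11.00, 11.06 and 10.91 in hTNF, and 11.02, 10.87 and 11.10 in the arrays labelled Sphk1 null. All transgenic arrays lay below both wild-type arrays, and within each group the values were close. It was 1.77-fold lower in hTNF (-0.83 ± 0.10; limma adjusted p = 0.000331) and 1.76-fold lower in the arrays labelled Sphk1 null (-0.82 ± 0.10; limma adjusted p = 0.000221). A second probe set gave -0.91 ± 0.12 and -0.89 ± 0.12 (limma adjusted p = 0.0005 and 0.000362). The third carries the suffix that Affymetrix gives to probes that may bind other transcripts. It was below wild type on all transgenic arrays too, at -0.70 ± 0.26 and -0.65 ± 0.26, and did not pass (limma adjusted p = 0.0654 and 0.0744). The fall of the brightest probe set passed under every alternative run, between -0.86 and -0.79 in hTNF when single arrays were left out.

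The Odc1 window is shown as that of the member that fell. From the same RefSeq table and build, it spans chr12:17544623-17544807 on the plus strand, 5′ to 3′, and ends before the outermost annotated start. Capitals mark GC boxes (GGGCGG on either strand).

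Odc1: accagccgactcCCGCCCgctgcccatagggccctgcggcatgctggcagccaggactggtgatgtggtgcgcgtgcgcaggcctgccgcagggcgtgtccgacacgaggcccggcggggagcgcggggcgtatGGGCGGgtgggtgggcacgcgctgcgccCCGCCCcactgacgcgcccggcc

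The full window of 250 bases before the listed Odc1 start holds 4 GC boxes, at 238, 116, 88 and 15 bases before it, and the last lies past the printed stretch. Of all windows in the table, 4.09% hold 4 or more.

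Srm, the spermidine synthase that acts after Odc1, was higher rather than lower on the transgenic arrays. It read 9.76 and 9.58 in wild type, 9.92, 10.15 and 10.00 in hTNF, and 10.04, 9.96 and 10.21 in the arrays labelled Sphk1 null. Wild type was lowest without overlap, by a margin about as wide as the gap between the wild-type arrays. The difference of 0.35 ± 0.12 (1.28-fold; limma adjusted p = 0.0512) in hTNF did not pass, although it did under 7 of 19 alternatives, among them quantile normalization (0.0408). In the arrays labelled Sphk1 null Srm rose by 0.40 ± 0.12 (1.32-fold; limma adjusted p = 0.0271). This call ended without wild-type replicate 1 (0.0502) or 2 (0.177), without replicate 3 of the arrays labelled Sphk1 null (0.0975), without the 3 mixed arrays (0.128), in a fit of those groups alone (0.0564) and with replicate number as a block (0.0928).

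Sat1, the acetyltransferase that limits polyamine breakdown, rose in both transgenic groups. It read 10.78 and 11.32 in wild type, 11.84, 11.59 and 11.74 in hTNF, and 11.92, 11.87 and 11.68 in the arrays labelled Sphk1 null. The transgenic arrays were all higher, and wild-type replicate 1 was lowest. The rise was 0.67 ± 0.16 (1.60-fold; limma adjusted p = 0.00933) in hTNF and 0.77 ± 0.16 (1.71-fold; limma adjusted p = 0.00373) in the arrays labelled Sphk1 null. Without wild-type replicate 1 the first value was 0.40 and did not pass (limma adjusted p = 0.0822), while the second was 0.50 and still did (0.031). Sat1 lies on the X chromosome, and in wild type and hTNF the array with low Xist (wild-type replicate 1 and hTNF replicate 2) had the lowest Sat1 of its group. Among the arrays labelled Sphk1 null the order was the other way, with the highest Sat1 on replicate 1, where Xist was lowest (11.19), and the lowest Sat1 on replicate 3, where Xist was highest (13.10). The part of sex-linked signal in the result was not tested.

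The Sat1 window is shown beside that of Odc1, since Sat1 rose where Odc1 fell. It spans chrX:155216450-155216699 in the same build and is written 5′ to 3′ on the minus strand up to the annotated start, with GC boxes in capitals at 72 and 6 bases before it.

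Sat1: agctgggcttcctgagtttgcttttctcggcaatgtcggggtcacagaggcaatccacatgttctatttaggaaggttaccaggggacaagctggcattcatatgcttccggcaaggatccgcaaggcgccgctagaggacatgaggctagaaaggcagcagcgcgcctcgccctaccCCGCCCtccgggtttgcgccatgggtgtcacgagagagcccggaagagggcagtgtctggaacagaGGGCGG

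Of all windows, 16.7% hold at least 2 GC boxes. The E-box CACGTG, found in 6.02% of windows on either strand, is not among the letters of these 3 windows.

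Oat, which moves ornithine towards proline and glutamate, stayed within a narrow range. It read 12.00 and 12.09 in wild type, 11.87, 11.87 and 11.84 in hTNF, and 11.90, 11.87 and 11.86 in the arrays labelled Sphk1 null. Both wild-type arrays were above all transgenic ones. The differences of -0.19 ± 0.07 and -0.17 ± 0.07 did not pass (limma adjusted p = 0.0871 and 0.104), here or under any alternative run.

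**Figure D2:**
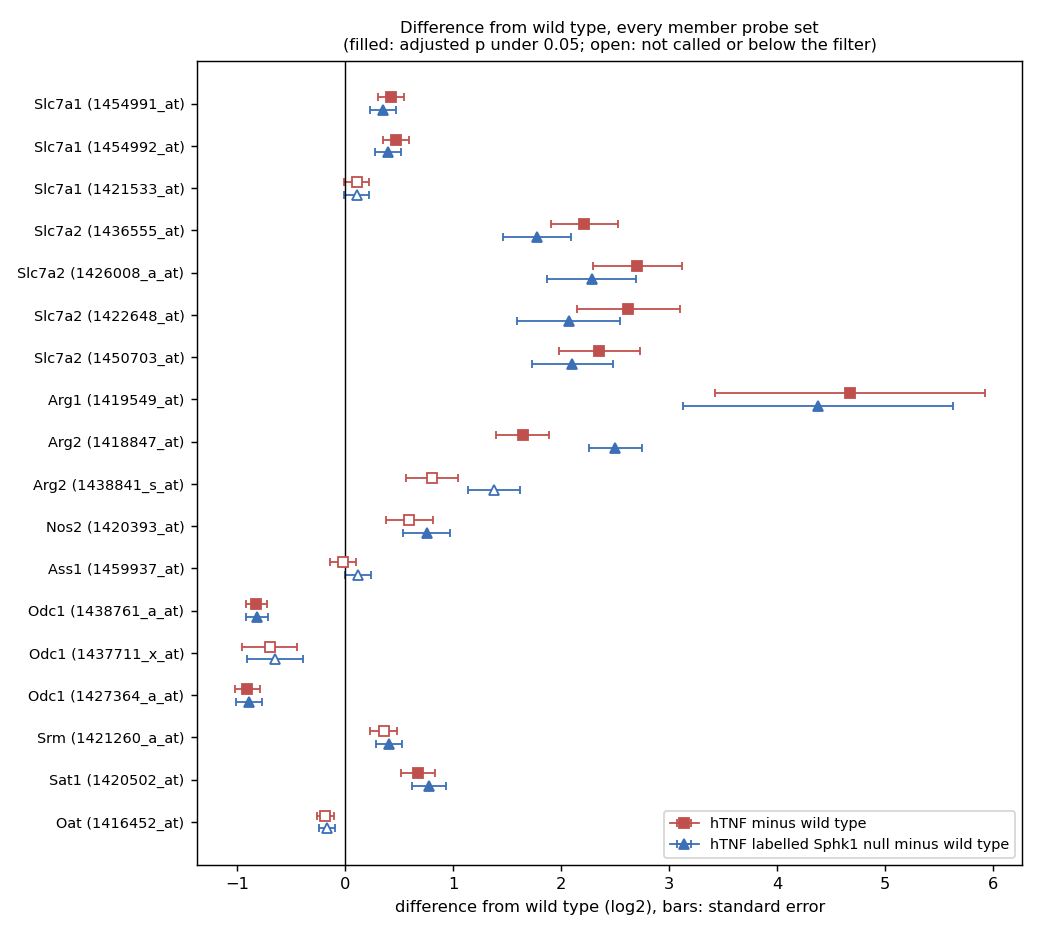
The plot shows, for each of the 18 probe sets, the log2 difference from wild type (horizontal axis) in hTNF (squares) and in the arrays labelled Sphk1 null (triangles), with standard errors. Filled points passed at an adjusted p under 0.05; all 4 Slc7a2 probe sets lie between 1.77 and 2.70 and all 3 Odc1 probe sets between -0.91 and -0.65.

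Between the transgenic groups none of the 9 tested genes was called by limma, beside 0.00829% of all tested probe sets. At an unadjusted p under 0.05 there was 1 of 9, which was Arg2, beside 7.61% of all probe sets. The groups did not overlap in that same 1 gene, beside 11.2%. Arg2 had passed the filter through the arrays labelled Sphk1 null alone, so its place in both counts is partly set by the filter and nothing is read from them. Arg2 was 0.86 ± 0.22 higher (SE; 1.81-fold; 95% interval 0.36 to 1.35) in the arrays labelled Sphk1 null, with a limma adjusted p of 0.540. Its second probe set differed by 0.57 ± 0.22 (interval 0.09 to 1.06; limma adjusted p = 0.760 without the filter). When single arrays were left out, the brighter Arg2 probe set differed by 0.66 to 1.04 and its adjusted p was 0.161 to 0.999.

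For the other members the intervals set how large a difference could have been present. Arg1 differed by -0.29 with an interval of -2.81 to 2.23 (limma adjusted p = 0.966), which leaves several-fold changes in either direction undecided. Without hTNF replicate 1 its sign turned, to 1.07, and without the 3 mixed arrays it was 1.51 (0.433). Slc7a2 differed by -0.44 (interval -1.07 to 0.19; limma adjusted p = 0.723). That value was -0.06 without hTNF replicate 1, -0.74 without hTNF replicate 2 and -0.02 without the 3 mixed arrays. Nos2 differed by 0.16 (-0.28 to 0.60; 0.859), and Sat1 by 0.10 (-0.21 to 0.41; 0.880). The narrowest intervals were those of Oat (-0.13 to 0.17), Odc1 (-0.19 to 0.21), Srm (-0.20 to 0.29) and Slc7a1 (-0.32 to 0.17).

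**Figure D3:**
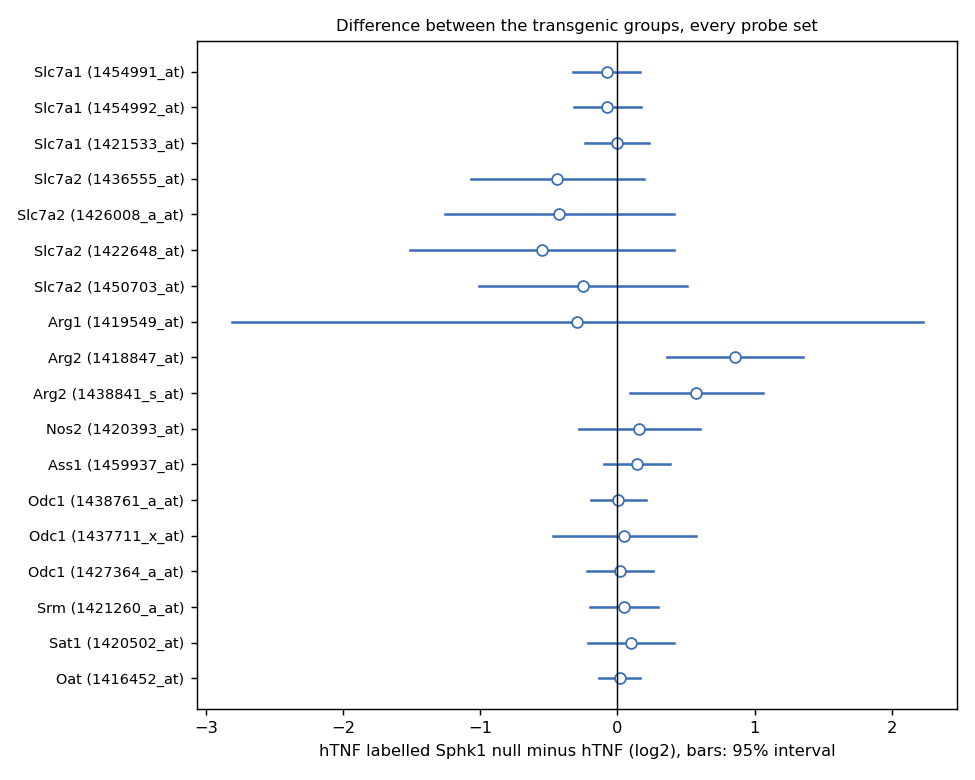
The plot gives the log2 difference of the arrays labelled Sphk1 null minus hTNF (horizontal axis) with its 95% interval for each of the 18 probe sets. None passed; both Arg2 intervals lie above 0, and the Arg1 interval spans -2.81 to 2.23.

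Of 48 further genes of arginine transport, the urea cycle, nitric oxide, proline and polyamines, 42 had a probe set of their own and 33 passed the filter. In hTNF against wild type 9 of the 33 rose and 5 fell, or 42.4%, with a median of -0.02. In the arrays labelled Sphk1 null against wild type 8 rose and 8 fell, or 48.5%. These shares stand beside the same 33.0% and 39.0% of all probe sets. Counted as genes in the same way, 2044 of 12362 rose and 2420 fell in hTNF. In the arrays labelled Sphk1 null 2366 rose and 2945 fell. Between the transgenic groups none was called by limma and 1 had an unadjusted p under 0.05, Slc3a2, the heavy chain that partners several amino acid carriers (0.27 ± 0.08; limma adjusted p of 0.600).

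Among the transport genes 2 of 4 rose in both comparisons with wild type, beside 16.6% and 18.7% of all probe sets called higher. Slc7a7, which with Slc3a2 forms a carrier that exchanges arginine across the cell membrane, read 7.93 and 7.89 in wild type and 8.66 to 9.50 on the transgenic arrays. It rose by 1.20 ± 0.20 (limma adjusted p = 0.00163) in hTNF and 1.50 ± 0.20 (0.000341) in the arrays labelled Sphk1 null. Slc3a2 rose by 0.32 ± 0.09 and 0.59 ± 0.09 (limma adjusted p = 0.0228 and 0.000843). The call in hTNF ended with replicate number as a block and without any single wild-type or hTNF array, while the other held under every alternative run.

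Of 8 genes of the nitric oxide branch, 1 rose and 2 fell in hTNF, and 1 rose and 1 fell in the arrays labelled Sphk1 null. Over all probe sets 33.0% and 39.0% were called in either direction, and nothing is read from these counts. Gch1, the first enzyme of tetrahydrobiopterin synthesis, read 8.04 and 7.91 in wild type, 9.11, 9.74 and 9.82 in hTNF, and 10.04, 9.83 and 9.90 in the arrays labelled Sphk1 null. It rose by 1.58 ± 0.20 (limma adjusted p = 0.000396) and 1.95 ± 0.20 (9.03e-05), and all transgenic arrays were above wild type. Nos1, the synthase of nerve and skeletal muscle, read 9.40 and 9.17 in wild type and 8.04 to 8.33 on the transgenic arrays. It fell by 1.13 on the log2 scale in hTNF (limma adjusted p = 0.000331) and by 1.14 in the arrays labelled Sphk1 null (0.000203). Nos3, the endothelial synthase, fell in hTNF (-0.62 ± 0.18; limma adjusted p = 0.0240) and was -0.38 ± 0.18 in the arrays labelled Sphk1 null (0.127). The Nos3 call ended without the 3 mixed arrays and without wild-type replicate 1 or 2 or hTNF replicate 1 or 3. Ddah2, which degrades methylated arginines that inhibit the synthases, did not pass (-0.26 ± 0.10 and -0.20 ± 0.10; limma adjusted p = 0.0738 and 0.134).

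Of 3 genes of the urea cycle and of arginine or creatine synthesis, 1 rose in hTNF, and 1 rose and 1 fell in the arrays labelled Sphk1 null. Of 4 genes of the proline arm, 1 rose and 1 fell in both comparisons. Both counts stand beside 33.0% and 39.0% of all probe sets called in either direction, and nothing is read from them. Asl, which releases arginine from argininosuccinate, rose by 0.65 ± 0.15 in hTNF (limma adjusted p = 0.00902) and 0.56 ± 0.15 in the arrays labelled Sphk1 null (0.0150). Aldh18a1, the enzyme that makes the common precursor of proline and ornithine, rose by 0.96 ± 0.15 (0.00129) and 0.94 ± 0.15 (0.00104). Prodh, which breaks down proline, fell by 0.67 and 0.74 on the log2 scale (limma adjusted p = 0.00549 and 0.0026). Gamt, the last enzyme of creatine synthesis, fell in the arrays labelled Sphk1 null (-0.68 ± 0.24; limma adjusted p = 0.0483) and did not pass in hTNF (-0.49 ± 0.24; 0.154). Without wild-type replicate 1 the calls of Asl in both comparisons, of Prodh in hTNF and of Gamt ended. Asl in the arrays labelled Sphk1 null was also lost without wild-type replicate 2 and with the replicate block. Gamt was lost under 9 alternatives, among them leaving out hTNF replicate 3 or replicate 2 or 3 of the arrays labelled Sphk1 null.

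Regulators of Odc1 moved in both directions, with the antizyme inhibitor Azin2 up and the antizyme Oaz2 down. Antizymes target Odc1 for degradation and antizyme inhibitors release it. Azin2 rose (0.76 ± 0.14 and 0.50 ± 0.14; limma adjusted p = 0.00324 and 0.0218), and Oaz2 fell (-0.47 ± 0.10 and -0.48 ± 0.10; 0.00655 and 0.00459). Oaz1 did not pass in hTNF (-0.17 ± 0.06; limma adjusted p = 0.0697) and fell in the arrays labelled Sphk1 null (-0.23 ± 0.06; 0.0163). The probe sets of Azin1 disagreed. The brightest gave -0.09 ± 0.11 and -0.12 ± 0.11 (limma adjusted p = 0.597 and 0.426), and another 0.28 ± 0.11 and 0.36 ± 0.11 (0.0836 and 0.0311). The other tested probe sets of Oaz2 did not pass. The next brightest gave -0.41 ± 0.20 and -0.45 ± 0.20 (limma adjusted p = 0.151 and 0.0999), and the dimmest -0.02 ± 0.14 and -0.06 ± 0.14 (0.942 and 0.765). Both Oaz2 calls ended without wild-type replicate 1, and the one in hTNF also with the mean over probe sets. The Azin2 call in the arrays labelled Sphk1 null was lost without wild-type replicate 1 or 2 or replicate 3 of that group, and Oaz1 without wild-type replicate 2, without the 3 mixed arrays, with the replicate block and in the fit without an intensity trend.

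At the polyamine end, Atp13a2, a lysosomal polyamine exporter, rose by 0.84 ± 0.16 in hTNF (limma adjusted p = 0.00329) and by 1.04 ± 0.16 in the arrays labelled Sphk1 null (0.000797). Sat2, a relative of Sat1, went the other way and fell (-0.52 ± 0.12 and -0.47 ± 0.12; limma adjusted p = 0.00875 and 0.0119). Smox, the spermine oxidase, did not pass (-0.22 ± 0.19 and -0.16 ± 0.19; 0.415 and 0.552). Dhps, the first enzyme of hypusine formation, fell in the arrays labelled Sphk1 null (-0.67 ± 0.20; limma adjusted p = 0.0235), and its second probe set did not pass (-0.31 ± 0.16; 0.154). Both Sat2 calls ended without wild-type replicate 1, and that of Dhps without either wild-type array or without replicate 2 or 3 of the arrays labelled Sphk1 null. Amd1 and Sms had no probe set of their own, and no value is given for them. Without wild-type replicate 1 the counts of these further genes fell to 7 in hTNF and 9 in the arrays labelled Sphk1 null, from 14 and 16.

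**Figure D4:**
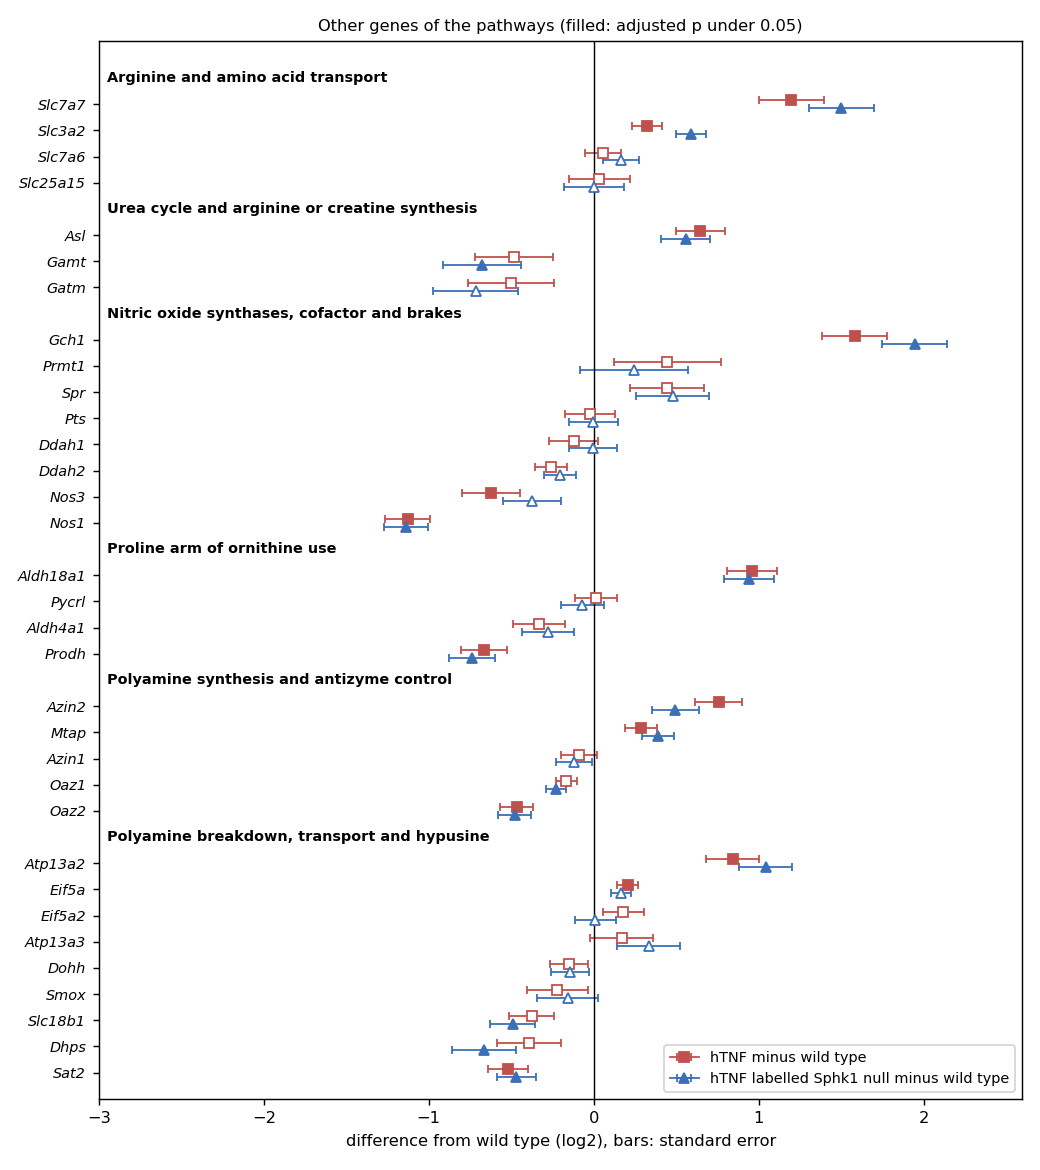
The plot shows the log2 difference from wild type (horizontal axis, with standard errors) of the 33 further genes, grouped by role, in hTNF (squares) and the arrays labelled Sphk1 null (triangles), filled where the adjusted p was under 0.05. Gch1 (1.58 and 1.95) and Slc7a7 (1.20 and 1.50) lie farthest up, and Nos1 (-1.13 and -1.14) farthest down.

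Macrophage, muscle and fat markers moved with the same groups, while few neutrophil markers and no erythroid marker were called. The mean of 18 macrophage genes was 9.85 and 9.92 in wild type and 11.35 to 11.85 on the transgenic arrays, and 16 of the 18 rose in either transgenic group, beside 16.6% and 18.7% of all probe sets called higher. The log2 of their summed linear level ran from 15.09 to 15.23 in wild type, and from 16.60 to 16.86 (hTNF) and 16.84 to 16.98 (labelled Sphk1 null) in the others. Of 15 skeletal muscle genes 14 fell in hTNF and 15 in the arrays labelled Sphk1 null, beside 16.4% and 20.2% of all probe sets called lower, and the mean was 14.27 and 14.22 in wild type and 12.76 to 13.36 on the transgenic arrays. All 8 adipocyte genes fell in both comparisons, beside the same 16.4% and 20.2%, from means of 11.54 and 11.74 to means of 8.94 to 9.65. The 11 proliferation genes averaged 6.70 and 8.15 on the wild-type arrays and 8.47 to 8.81 on the others. Of them 8 rose in hTNF, beside 16.6% of all probe sets. Of 14 tested neutrophil genes 1 rose in either transgenic group, beside 16.6% and 18.7% of all probe sets. Of 4 tested erythroid genes none was called by limma in any comparison, with 0 at an unadjusted p under 0.05. Against wild type 33.0% and 39.0% of all probe sets were called, and 42.2% and 47.1% had an unadjusted p under 0.05. Both lists set the wild-type arrays apart, with neutrophil means of 7.72 and 10.19 and erythroid means of 6.19 and 7.28, beside 8.95 to 10.38 and 6.14 to 8.26 on the transgenic arrays. With wild-type arrays so far apart, nothing is read from the neutrophil and erythroid counts. Ngp, a neutrophil granule protein, read 7.90 and 12.48 in wild type. The part of these cell types in the changes of Slc7a2, the arginases, Sat1, Odc1 and Nos1 was not tested.

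Within the transgenic groups the order of Arg1 and of Slc7a2 was not that of the macrophage mean, which had a narrow range there. The hTNF arrays had macrophage means of 11.35 to 11.69, and those with the Sphk1 null label had 11.63 to 11.85. Between groups, wild type was lowest for Arg1, for Slc7a2 and for the macrophage mean. The part of macrophages in Arg1 and Slc7a2 was not tested. In hTNF, replicate 1 had the highest Arg1 (12.63) and Slc7a2 (13.11) and the lowest macrophage mean (11.35). The mean of 13 genes of alternative macrophage activation was 10.26, 9.18 and 9.73 in hTNF, in the order of Arg1 and Slc7a2. In the arrays labelled Sphk1 null that mean was 9.557, 9.658 and 9.563, a narrow range in the order of Arg1 but not of Slc7a2. The skin mean in hTNF was 10.77, 6.35 and 8.26, in the same order as Arg1 and Slc7a2. In the arrays labelled Sphk1 null it was 9.45, 6.60 and 8.70, where Arg1 ran in the opposite order (8.73, 10.67 and 9.44). None of the 22 skin genes that passed the filter was called by limma in any comparison, and 1 had an unadjusted p under 0.05, in hTNF against wild type. With the skin mean as a covariate Arg1 differed from wild type by 4.04 in hTNF (limma adjusted p = 0.0189) and Slc7a2 by 2.04 (0.000435). That fit gave all groups the same skin slope, although Arg1 ran with skin in hTNF and against it in the other transgenic group. It therefore cannot set a skin part apart, and the part of skin in these changes was not tested.

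**Figure D5:**
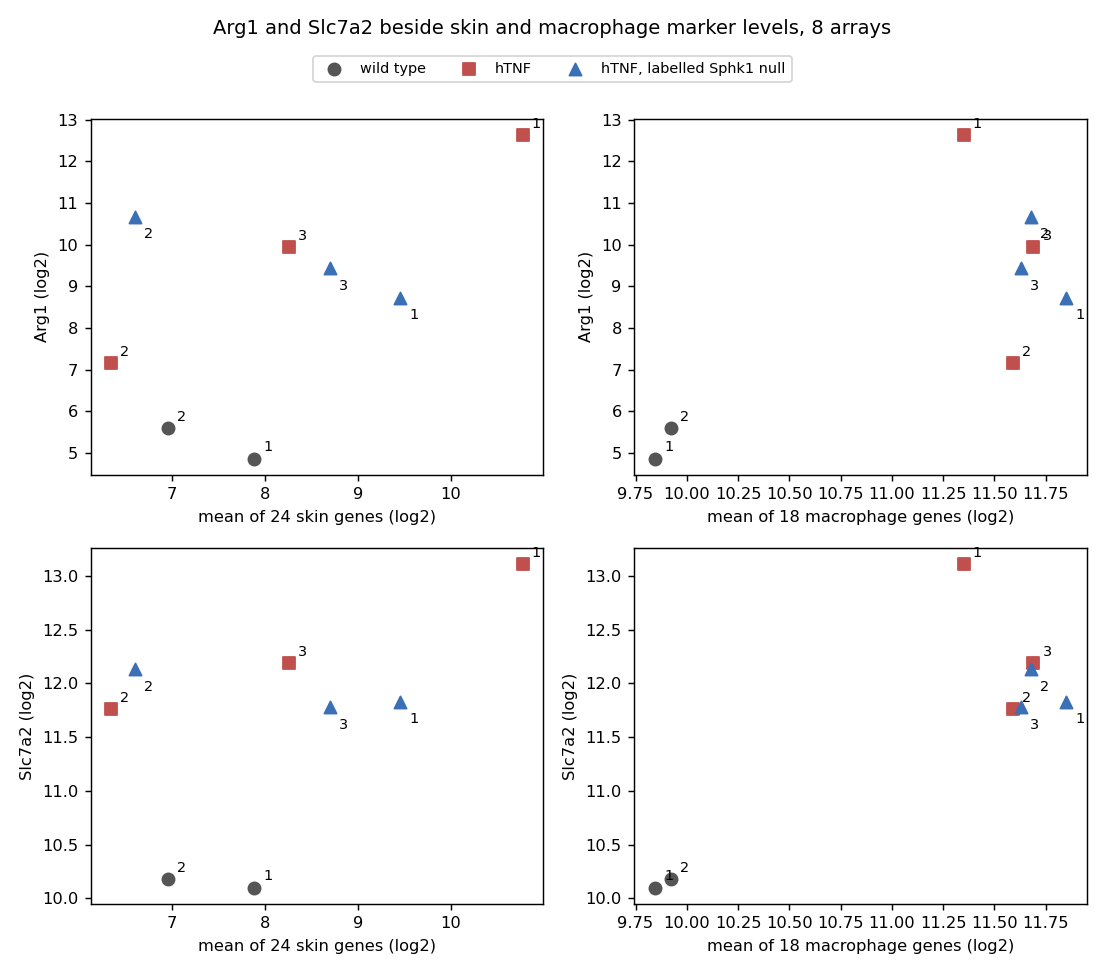
Each point is 1 of the 8 arrays, numbered by replicate, with Arg1 (top) or Slc7a2 (bottom) on the vertical axis and the mean of 24 skin genes (left) or 18 macrophage genes (right) on the horizontal axis, all in log2. The wild-type arrays are lowest on the vertical axis in all panels and lowest for macrophage genes, while hTNF replicate 1 is highest for Arg1, Slc7a2 and skin genes.

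The genes closest to Arg1 over the 8 arrays were sought among 3521 genes by the Pearson correlation of deviations from the group means, given here as a description. They were Mtmr7 (r = 0.99), Cish (0.99), Atp10b (0.98), Retnla (0.98) and Mmp12 (0.98). Retnla, a secreted protein often used to mark alternatively activated macrophages, read 10.43 and 10.24 in wild type, 13.56, 9.03 and 11.91 in hTNF, and 10.54, 12.02 and 11.16 in the arrays labelled Sphk1 null. Like Arg1 it was highest on hTNF replicate 1 and lowest of that group on replicate 2, but it overlapped with wild type. Mmp12, the macrophage elastase, read 6.77 and 7.85, then 11.55, 8.56 and 10.00, and 9.40, 10.40 and 9.56, with wild type lowest. Cish, a feedback inhibitor of cytokine signalling, read 7.94 and 8.03 in wild type and 8.38 to 9.20 on the transgenic arrays.

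For Nos2 the closest genes were Calcoco1, Syn1, Sertad3, Atic and Pacs2 (r = 0.99 for each), all higher on wild-type replicate 1 than on replicate 2, as Nos2 was. For Odc1 they were Nt5dc2 (0.95), Lpin3 (0.94), Tlcd3b (0.94), Hapln1 (0.94) and Flnc (0.94). Odc1 varied little within groups (pooled SD 0.09), below the 0.2 asked of the genes compared, so these r values follow small deviations. Nt5dc2 read 7.69 and 7.61 in wild type and 8.39 to 9.14 on the transgenic arrays, opposite in direction to Odc1. Lpin3 overlapped with wild type, and Tlcd3b, Hapln1 and Flnc were lower on all transgenic arrays. Flnc, a muscle filamin, read 12.28 and 11.92 in wild type and 9.66 to 10.54 on the transgenic arrays. The 8 points of each correlation share groups and the arrays that stand apart, so no test is given.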

How the data were processed

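RNA from 8 ankle joints was hybridised to single-colour Affymetrix arrays, 2 wild-type, 3 hTNF and 3 labelled Sphk1 null. For 45101 probe sets the authors deposited log2 values in 1 table. Expression Console, RMA and MAS5 are named in the submitters' processing notes, without saying which made the table. Medians of the arrays were 6.84 to 6.89, so a shift in total RNA per joint would not show. Names came from the platform annotation, and symbols and chromosomes from a GRCm38.p6 gene table, which also gave the promoter sequences, for 5 of the 10 members.

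Control probe sets were left out and 24115 others were fitted on all 8 arrays with limma 3.58.1 in R 4.3.3 (1 mean per group, moderated variances with an intensity trend, 5 residual degrees of freedom), with Benjamini-Hochberg adjustment over all of them. Standard errors of log2 differences had a median of 0.15 against wild type and 0.13 between the transgenic groups, and the number of arrays limits this precision. The fit was tested on simulated data. The genes named were all members, the 4 largest called rises and falls of the further genes per comparison, a set of named regulators, and the 5 genes most like Arg1, Nos2 and Odc1. Slc3a2, Azin2 and Oaz2 were named after their values were seen. Members, lists and rules were chosen with earlier results of these data known.

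Alternatives were quantile normalization, other filters, variance models, an offset, a replicate block, a skin covariate, a mean over probe sets, and leaving out arrays. Same-numbered arrays did not deviate together in every pair, so the numbers were not taken as pairs.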

Additional observations from a re-analysis of the deposited data

How the results depend on the processing

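The counts of called member genes, 6 in hTNF against wild type and 8 in the arrays labelled Sphk1 null against wild type, stayed within 1.5 times of these values under every alternative that kept all arrays. Leaving out 1 array gave 4 to 7 and 4 to 8 members, the second being 5 without wild-type replicate 1, 4 without wild-type replicate 2 and 5 without replicate 3 of the arrays labelled Sphk1 null. The further pathway genes gave 7 to 16 and 9 to 17, from 14 and 16, with 7 and 9 without wild-type replicate 1. Between the transgenic groups the limma count was 0 for both lists under every alternative. The cause of these losses was not tested.

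Same-numbered arrays correlated at -0.17 to 0.27 in their deviations from the group means, above 0.1 in 4 of 7 pairs. With the replicate block, limma called 5, 0 and 6 members and 11, 0 and 12 further genes.

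Signs turned only between the transgenic groups, where nothing was called. Without the 3 mixed arrays the difference was 1.51 for Arg1 and 0.035 for Slc7a1. Leaving out 1 array gave -1.67 to 1.07 for Arg1 (0.15 without replicate 1 of the arrays labelled Sphk1 null), -0.045 to 0.07 for Odc1, -0.148 to 0.0067 for Slc7a1 and -0.023 to 0.11 for Srm. With 2 or 3 arrays per group, the small differences of Srm and Slc7a1 passed or not depending on single arrays.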

Other observations

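The markers of alternative macrophage activation did not move together. Of 13 such genes 6 rose and 1 fell in hTNF, and 7 rose and 1 fell in the arrays labelled Sphk1 null, by limma at an adjusted p under 0.05, beside 16.6% and 18.7% of all probe sets called higher and 16.4% and 20.2% called lower. The chemokine Ccl17 read 6.64 and 6.73 in wild type, 11.78, 9.73 and 11.01 in hTNF, and 10.31, 10.40 and 10.16 in the arrays labelled Sphk1 null. Mgl2, a lectin of such macrophages, read 7.16 and 6.85, then 10.63, 8.43 and 9.50, and 9.09, 9.45 and 8.95. Both were above wild type on all transgenic arrays, and in hTNF both were in the order of Arg1. In the arrays labelled Sphk1 null they were not: both were highest on replicate 2, as Arg1 was, but lowest on replicate 3, where Arg1 was lowest on replicate 1. Ccl24 went the other way, at 8.41 and 8.13 in wild type and 7.59 to 7.80 on the transgenic arrays. Chil3 differed between the wild-type arrays, at 6.25 and 9.98, and the scavenger receptor Cd163 overlapped between groups, at 7.49 to 8.41 over all arrays.

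The genes closest to Slc7a2, a member added to this search after its values were seen, were Aloxe3 (r = 0.99), Cish (0.99), Cth (0.99), Fbp1 (0.98) and Mtmr7 (0.98). Cish and Mtmr7 were also among the 5 closest to Arg1. Fbp1, the gluconeogenic fructose bisphosphatase, read 6.31 and 6.58 in wild type, 9.62, 5.92 and 7.37 in hTNF, and 6.34, 7.00 and 6.66 in the arrays labelled Sphk1 null, so hTNF replicate 1 alone was far above the others.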
